A study of Mus musculus with 16 samples.

Results

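The uncoupling proteins Ucp1, Ucp2 and Ucp3 are 3 of the 15350 genes listed for mouse interscapular brown adipose tissue, and they were taken by name for their levels in every library. They belong to the mitochondrial carriers of the inner membrane. UCP1 is the proton channel through which brown adipocytes turn the respiratory gradient into heat. Noradrenaline, acting through beta-adrenergic receptors and cyclic AMP, both raises transcription of Ucp1 and releases the fatty acids that open the channel. UCP2 is found in many tissues and is abundant in immune cells, and UCP3 is found mainly in skeletal muscle and brown fat. Neither is known to replace UCP1 in heat production. The comparisons ask whether Ucp2 or Ucp3 RNA was higher where Ucp1 was lowered, and whether the Ucp1 reads left in knockout tissue went with those of other adipocyte genes.

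The tissue came from C57BL/6J mice in 4 groups of 4 libraries: Ucp1 knockout (KO) with isoproterenol, KO with saline, wild type (WT) with isoproterenol, and WT with saline. Isoproterenol, an agonist of all beta-adrenergic receptors, was infused by minipump at 60 mg/kg/day for 3 days. Nothing in the labels ties each library to an animal of its own, so a p-value measures only the spread between these libraries, which may be technical. The labels give neither the animals' age nor which stretch of Ucp1 the knockout removed, so reads left at the gene do not check the genotype. Depth ran from 9004515 to 20986735 reads per library over the listed genes, and 3 reads were worth 0.143 to 0.345 CPM, the counts of a gene scaled to 1e6 reads. One library stood apart, KO isoproterenol replicate 1. Its 22 brown adipocyte genes averaged 3.34 log2 CPM, against 6.23, 6.55 and 7.69 log2 CPM in the other KO isoproterenol libraries and 6.80 to 7.12 log2 CPM with KO saline. In all 16 libraries there were reads for every pan-adipocyte gene, such as Adipoq, Plin1 and Fabp4, and for every macrophage marker listed below.

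With isoproterenol, Ucp2 was higher in KO than in WT tissue, while Ucp1 and Ucp3 were lower. The 250 bases upstream of each annotated start are therefore shown. They come from RefSeq promoter tables of build GRCm38.p6, 5′ to 3′ on the plus strand, which is the strand of all 3 genes. Ucp1 lies on chromosome 8, here chr8:83290098-83290347. Ucp2 at chr7:100493108-100493357 and Ucp3 at chr7:100472741-100472990 lie next to each other on chromosome 7. Capitals mark matches, on either strand, to the letters searched for.
Ucp1: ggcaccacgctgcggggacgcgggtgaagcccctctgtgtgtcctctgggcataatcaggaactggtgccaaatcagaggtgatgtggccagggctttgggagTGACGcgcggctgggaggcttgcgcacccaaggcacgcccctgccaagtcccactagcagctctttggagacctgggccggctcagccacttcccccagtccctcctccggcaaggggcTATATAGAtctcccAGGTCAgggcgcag
Ucp2: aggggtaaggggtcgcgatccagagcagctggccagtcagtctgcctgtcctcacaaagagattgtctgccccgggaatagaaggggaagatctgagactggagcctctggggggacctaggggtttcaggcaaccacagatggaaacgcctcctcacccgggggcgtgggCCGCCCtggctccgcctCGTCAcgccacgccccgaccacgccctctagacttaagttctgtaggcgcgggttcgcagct
Ucp3: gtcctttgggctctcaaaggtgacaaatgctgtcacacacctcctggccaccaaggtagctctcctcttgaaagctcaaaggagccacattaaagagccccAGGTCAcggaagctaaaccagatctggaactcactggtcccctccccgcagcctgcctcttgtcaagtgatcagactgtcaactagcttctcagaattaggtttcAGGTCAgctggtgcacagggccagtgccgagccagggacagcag

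The capitals in the Ucp1 window begin with TGACG, the core of a cyclic AMP response element, 143 to 147 bases before the start. They continue with 3 overlapping matches to TATANA, 21 to 28 bases before the start, as a TATA box has, and end with AGGTCA, the hexamer that nuclear receptors bind, 9 to 14 bases before it. In the Ucp2 window they mark GGGCGG, a GC box, read on the minus strand 74 to 79 bases before the start, and TGACG, also on the minus strand, 58 to 62 bases before it. In the Ucp3 window they mark AGGTCA in 2 places, 144 to 149 and 39 to 44 bases before the start. Neither the full cyclic AMP response element TGACGTCA nor CCAAT was found in any of the 3 windows. Among 32851 promoter windows of the same length, 22.6% held TATANA, 17.8% TGACG, 14% AGGTCA, 32.7% GGGCGG, 1.55% TGACGTCA and 33.8% CCAAT. These matches describe the letters in the windows and show no binding.

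The members are similar proteins, so the reads were checked for sequence that could be counted to the wrong one. The annotated proteins have 307 (UCP1), 309 (UCP2) and 308 residues (UCP3). UCP2 and UCP3 share 74.8% of aligned residues, UCP1 and UCP2 57.4%, and UCP1 and UCP3 54.1%. The longest run of bases common to the Ucp2 and Ucp3 transcripts is shown because it bounds how far a read could be confused between them, and so is the longest run that Ucp1 has in common with each of the others.
Ucp2 and Ucp3: AATGCCATTGTCAACTGTGCTGAG
Ucp1 and each of the others: ATTGGCCTCTACGACTC
At 24 and 17 bases, both runs are shorter than the 75 base reads. No stretch of 75 bases was common to transcripts of any pair of members, and the closest coding stretches of that length differed at 7 bases for Ucp2 and Ucp3, 16 for Ucp1 and Ucp2, and 15 for Ucp1 and Ucp3. Of 7383 such stretches in Ucp2 transcripts, 231 occur on the opposite strand in transcripts of the neighbour Dnajb13. The strand setting of the counter is not given in the sources used here, so reads of that overlap cannot be assigned. Dnajb13 itself averaged 6.44 CPM in KO isoproterenol, 4.64 CPM in KO saline, 3.46 CPM in WT isoproterenol and 2.18 CPM in WT saline libraries.

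Ucp1, the knocked-out gene, had 19.0, 268, 848 and 2129 CPM in KO isoproterenol replicates 1 to 4, against 8905, 11662, 17655 and 18458 CPM in WT isoproterenol replicates 1 to 4. Every KO library lay below every WT library. The difference was -5.45 on the log2 CPM scale (standard error, SE, 0.98, 95% interval -7.55 to -3.36), with a Benjamini-Hochberg adjusted p of 5.28e-04 in limma's moderated test over all 15350 genes. Without KO isoproterenol replicate 1 it was -4.11 (adjusted p = 5.35e-05), and over all fits that left out 1 library it lay between -6.38 and -4.11. At the threshold used, an adjusted p under 0.05, all 3 members passed in this comparison, Ucp2 higher and Ucp1 and Ucp3 lower, where 44.6% of all genes passed (21.6% higher, 23.1% lower). In 35.5% of all genes these groups of libraries did not overlap, as in all 3 members.

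With saline, Ucp1 had 1118, 588, 1156 and 410 CPM in KO replicates 1 to 4, against 2298, 3449, 3220 and 3339 CPM in WT replicates 1 to 4. Again no KO library reached the lowest WT library. The difference of -2.02 (SE 0.98, 95% interval -4.12 to 0.07) missed the threshold with an adjusted p of 0.742 in the fit over all 16 libraries, in which none of the members passed and 0.0977% of all genes did. Fitted to the 8 saline libraries alone, the same difference had a limma adjusted p of 0.0438, and 0.235 when replicate numbers were added as a block. Of all genes, 7.19% did not overlap between the saline groups, and Ucp1 was the only member among them.

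The Ucp1 reads left in KO tissue were far above the floor of 3 reads in every library, with the fewest, 398 reads (exact 95% Poisson interval 360 to 439, counting error only), in KO isoproterenol replicate 1. Among the KO isoproterenol libraries the highest level was 112 times the lowest, against 2.82 times among the KO saline libraries, 2.07 times among WT isoproterenol and 1.50 times among WT saline libraries. The KO isoproterenol mean was 816 ± 942 CPM and the KO saline mean 818 ± 376 CPM (SD, n = 4 each). The KO isoproterenol libraries lay on both sides of the KO saline ones. The log2 difference between them, isoproterenol minus saline, was -1.27 (95% interval -3.37 to 0.82, limma adjusted p = 0.303). It was 0.07 (adjusted p = 0.927) without KO isoproterenol replicate 1, and -2.20 (adjusted p = 0.0442) without KO isoproterenol replicate 4, so these libraries decide its direction and its call.

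In WT tissue Ucp1 averaged 14170 ± 4638 CPM with isoproterenol and 3076 ± 527 CPM with saline (SD, n = 4 each). All isoproterenol libraries lay above all saline libraries. Of all genes, 32.9% did not overlap between these groups, in either direction. The log2 difference was 2.16 (95% interval 0.06 to 4.25), a fold of 4.46, with a limma adjusted p of 0.152 when the spread was estimated over all 16 libraries. Fitted to the 8 WT libraries alone, the adjusted p was 1.18e-04. The KO response minus the WT response was -3.43 (SE 1.39, adjusted p = 0.0826), and -4.36 (adjusted p = 0.0102) without KO isoproterenol replicate 4.

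**Figure D1:**
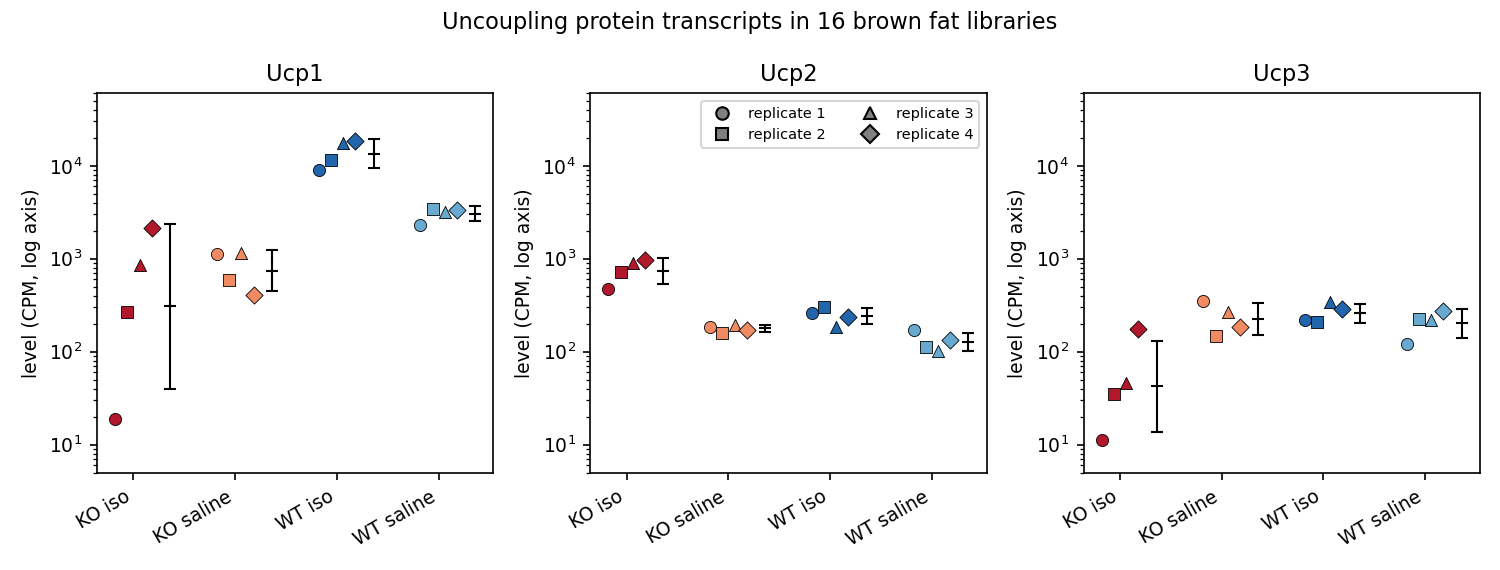
Level of Ucp1, Ucp2 and Ucp3 in each of the 16 libraries (CPM, log axis), by group, with the marker shape giving the replicate number and the bar the mean ± SD taken on the log2 scale (n = 4). The KO isoproterenol libraries span 19.0 to 2129 CPM for Ucp1, lie above all others for Ucp2 (470 to 967 CPM) and include the lowest values of Ucp3 (11.3, 35.1 and 45.4 CPM).

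Ucp2, the widely expressed member, had 470, 723, 906 and 967 CPM in KO isoproterenol replicates 1 to 4, against 186, 159, 196 and 173 CPM in KO saline replicates 1 to 4. All KO isoproterenol libraries lay above all KO saline libraries, which was so for 37.5% of all genes in either direction. Isoproterenol minus saline in KO tissue was 2.05 (SE 0.23, 95% interval 1.57 to 2.53), a fold of 4.15, with a limma adjusted p of 6.80e-06. Of the members, Ucp2 passed as higher and Ucp3 as lower in this comparison, in which 48.6% of all genes passed (23.8% higher, 24.8% lower).

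In WT tissue Ucp2 had 264, 300, 184 and 237 CPM with isoproterenol in replicates 1 to 4, against 169, 113, 101 and 134 CPM with saline in replicates 1 to 4. These groups did not overlap either, with the lowest isoproterenol library just above the highest saline library. The log2 difference was 0.93 (SE 0.23, 95% interval 0.45 to 1.41), a fold of 1.91, with a limma adjusted p of 0.0116. Ucp2 was the only member to pass in this comparison, in which 16.6% of all genes passed (7.6% higher, 8.98% lower).

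Between genotypes, Ucp2 averaged 767 ± 223 CPM in KO and 246 ± 48.8 CPM in WT libraries with isoproterenol (SD, n = 4 each). The log2 difference was 1.61 (SE 0.23, 95% interval 1.13 to 2.09), a fold of 3.05, with a limma adjusted p of 9.35e-05. With saline it averaged 178 ± 15.8 CPM in KO and 129 ± 29.6 CPM in WT libraries (SD, n = 4 each). The saline groups overlapped, and the difference of 0.49 (95% interval 0.01 to 0.97) missed the threshold (limma adjusted p = 0.706). The response to isoproterenol in KO minus that in WT was 1.12 (SE 0.32, 95% interval 0.44 to 1.80, adjusted p = 0.0210), a comparison in which 24.7% of all genes passed (10.9% higher, 13.8% lower). Ucp2 and Ucp3 passed in it, Ucp2 with a higher and Ucp3 with a lower response in KO.

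Markers of macrophages and neutrophils, immune cells that can express Ucp2, moved with it between groups. All 18 macrophage markers were higher in KO tissue with isoproterenol than with saline, 14 of 18 were higher in KO than in WT tissue with isoproterenol, and 3 of 18, or none with library totals in place of the authors' scaling, were higher with isoproterenol than with saline in WT tissue. Of all genes, 23.8%, 21.6% and 7.6% were called higher in these 3 comparisons. Summed over the macrophage markers, the level was 1737 to 13482 CPM in KO isoproterenol libraries and 472 to 894 CPM in KO saline ones. In WT tissue it was 730 to 1352 CPM with isoproterenol, against 333 to 888 CPM with saline. Of 7 measured neutrophil markers, 6, 5 and 3 were higher in the same comparisons, with median differences of 4.77, 2.55 and 1.87. Summed, they reached 136 to 544 CPM in KO isoproterenol and 7.87 to 12.7 CPM in KO saline libraries. In WT tissue they reached 37.6 to 44.7 CPM with isoproterenol and 10.4 to 15.4 CPM with saline, and Mmp8 and Cxcr2 were at 0 reads in some saline libraries. The part of neutrophils in the Ucp2 differences was not tested. In bulk tissue fewer cells of a type and less RNA per cell cannot be told apart.

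Within the KO isoproterenol group the order was different. The mean log2 CPM of the macrophage markers was 8.28, 6.82, 8.03 and 5.98 in replicates 1 to 4, so the library with the most macrophage RNA had the least Ucp2 and the one with the least had the most. The neutrophil means were 5.76, 4.13, 4.72 and 3.46 in the same libraries, also highest where Ucp2 was lowest and lowest where Ucp2 was highest. With the macrophage mean as a covariate, Ucp2 in KO tissue differed by 2.12 (limma adjusted p = 0.0182) between isoproterenol and saline, and by 1.66 (adjusted p = 0.0228) between KO and WT with isoproterenol. In WT tissue the difference between isoproterenol and saline was 0.95 (adjusted p = 0.0173) with the covariate. The KO response minus the WT response was 1.16 with it and no longer passed (adjusted p = 0.154). The macrophage means of the KO isoproterenol libraries, 5.98 to 8.28, lay above those of every other library, which were at most 5.38. In comparisons that include this group, the part of macrophages in the Ucp2 differences therefore cannot be told apart from the group.

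Ucp3, the member of muscle and brown fat, had 11.3, 35.1, 45.4 and 177 CPM in KO isoproterenol replicates 1 to 4, against 352, 146, 269 and 185 CPM in KO saline replicates 1 to 4. The first 3 of the KO isoproterenol libraries lay below all KO saline libraries, while replicate 4 fell within their range. Isoproterenol minus saline in KO tissue was -2.42 (SE 0.58, 95% interval -3.65 to -1.18, limma adjusted p = 0.00314). With replicate numbers as a block and the 8 KO libraries alone it was the same size but did not pass (adjusted p = 0.0553).

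In WT tissue Ucp3 had 216, 209, 339 and 290 CPM with isoproterenol in replicates 1 to 4, against 122, 223, 216 and 276 CPM with saline in replicates 1 to 4. These groups overlapped, and the difference of 0.36 (95% interval -0.87 to 1.59) did not pass (limma adjusted p = 0.721). With isoproterenol, all KO libraries lay below all WT libraries, a log2 difference of -2.61 (SE 0.58, 95% interval -3.84 to -1.38, adjusted p = 0.00213). With saline, KO minus WT was 0.16 (95% interval -1.07 to 1.39, adjusted p = 0.991), with overlapping groups.

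The isoproterenol response of Ucp3 in KO minus that in WT was -2.78 (SE 0.82, 95% interval -4.52 to -1.04, limma adjusted p = 0.0241). It just missed the threshold without WT saline replicate 1 (-2.54, adjusted p = 0.0535) and with voom's precision weights (-2.73, adjusted p = 0.0520). Without KO isoproterenol replicate 1, the library that stands apart, Ucp3 was still lower in KO tissue with isoproterenol than with saline (-1.78, adjusted p = 0.00524) and lower than in WT tissue with isoproterenol (-1.98, adjusted p = 0.00294). Without it Ucp2 was still higher in these comparisons, by 2.27 (adjusted p = 6.59e-07) and 1.83 (adjusted p = 9.47e-06).

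**Figure D2:**
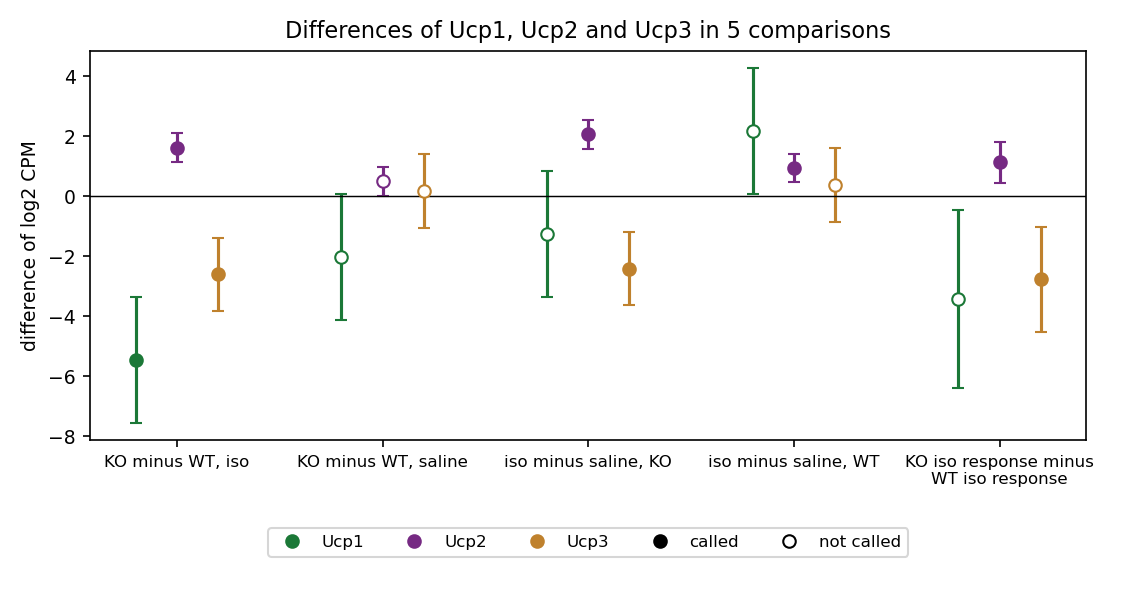
Differences of log2 CPM for Ucp1, Ucp2 and Ucp3 in 5 comparisons, with 95% intervals from the fit over 16 libraries and filled points for an adjusted p under 0.05. In KO minus WT with isoproterenol, Ucp2 lies at 1.61, above 0, while Ucp1 lies at -5.45 and Ucp3 at -2.61, below it.

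Skeletal muscle, the other main site of Ucp3, varied widely between libraries of the same group. The mean log2 CPM of its 17 measured markers was -0.39, 4.51, 4.37 and 1.48 in KO isoproterenol replicates 1 to 4 and 0.38, 5.32, 5.20 and -0.72 in KO saline replicates 1 to 4. The KO saline library with the most Ucp3, replicate 1, was thus low in muscle markers, and the one with the least Ucp3, replicate 2, had the most. In WT tissue the muscle means ran from -0.55 to 6.93 log2 CPM with isoproterenol and from -0.29 to 8.69 log2 CPM with saline. With the muscle mean as a covariate, Ucp3 differed by -2.41 (limma adjusted p = 0.00404) between isoproterenol and saline in KO tissue and by -2.55 (adjusted p = 0.00374) between KO and WT with isoproterenol.

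**Figure D3:**
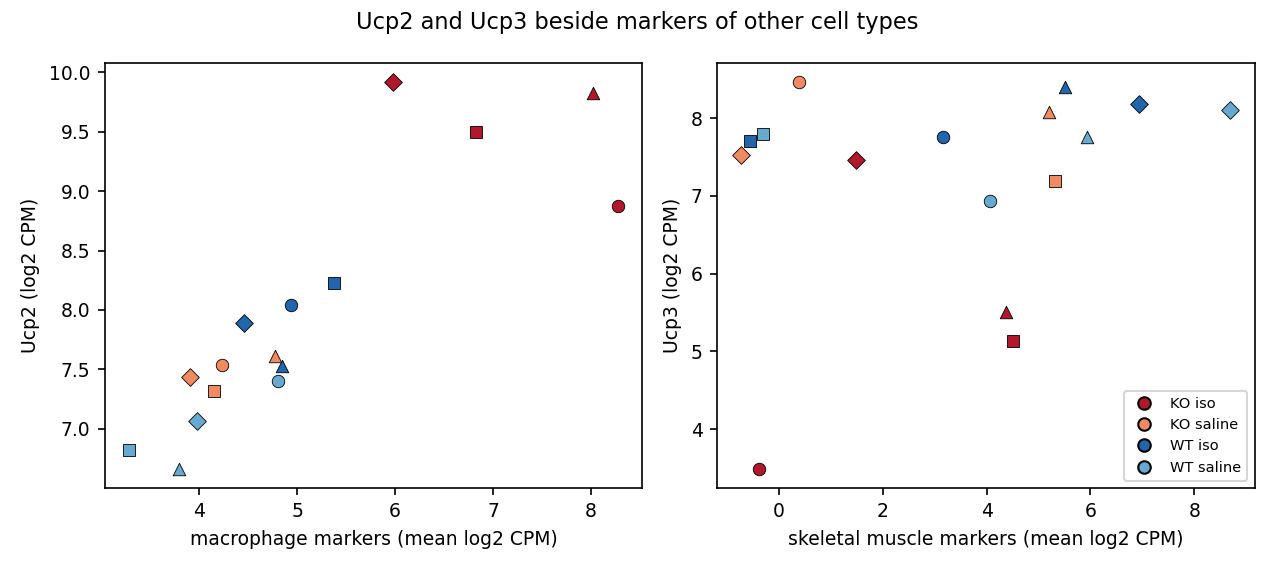
Ucp2 against the mean of 18 macrophage markers and Ucp3 against the mean of 17 skeletal muscle markers in the 16 libraries (log2 CPM on all axes, color for group, shape for replicate). The KO isoproterenol libraries have the highest macrophage means, at 5.98 to 8.28, with the lowest Ucp2 level of the group at 8.28, and the lowest Ucp3 values occur at both low and middle muscle means.

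To set the members beside each other, levels were divided by the length of the annotated principal transcript (1.636 kb for Ucp1, 3.988 kb for Ucp2 and 2.448 kb for Ucp3). The stretch of Ucp1 that the knockout removed is not given, so the length of the Ucp1 RNA left in KO tissue is unknown. Ucp1 per kb in KO libraries, and the orders, sums and shares that include it, therefore assume the full annotated length. Per kb, the order in each KO saline, WT isoproterenol and WT saline library was Ucp1, then Ucp3, then Ucp2. In the KO isoproterenol libraries Ucp3 came last in all 4. Ucp2 came first in replicates 1 and 2, and Ucp1 in replicates 3 and 4.

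Ucp1 per kb was 11.6, 164, 518 and 1301 CPM in KO isoproterenol replicates 1 to 4, and Ucp2 per kb was 118, 181, 227 and 242 CPM in the same libraries. The level of Ucp2 thus ranged over a narrow interval while that of Ucp1 crossed it between replicates 2 and 3. With KO saline, Ucp1 averaged 499.8 ± 229.7, Ucp3 97.3 ± 37.5 and Ucp2 44.8 ± 3.97 CPM per kb (SD, n = 4). With coding length in place of transcript length, Ucp2 also exceeded Ucp1 in KO isoproterenol replicate 3, at 977.8 against 920.3 CPM per kb, and Ucp2 and Ucp3 changed places in several of the other libraries. With the union of all annotated exons, Ucp2 exceeded Ucp1 in KO isoproterenol replicate 1 alone.

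The sum of Ucp2 and Ucp3 per kb, by transcript length, was 220 ± 81.1 CPM in KO isoproterenol, 142 ± 40.7 in KO saline, 169 ± 14.1 in WT isoproterenol and 118 ± 22.2 in WT saline libraries (SD, n = 4 each). The highest such sum in a KO library, 315 CPM per kb, lay below the lowest Ucp1 level in a WT library, 1405 CPM per kb. Ucp1 averaged 8661 ± 2835 CPM per kb in WT isoproterenol and 1880 ± 322 in WT saline libraries (SD, n = 4 each). Summed over all 3 members, KO libraries held 134 to 1616 CPM per kb with isoproterenol and 369 to 874 with saline, and WT libraries held 5598 to 11460 with isoproterenol and 1497 to 2228 with saline. Of that sum, Ucp2 and Ucp3 together made up 19.5 to 91.3% in KO libraries with isoproterenol and 18.4 to 32.2% with saline, and in WT libraries 1.55 to 2.76% with isoproterenol and 5.37 to 6.68% with saline. By coding length the shares were 34.8 to 96.2% and 28.6 to 46.5% in KO libraries, and 2.76 to 5.09% and 8.85 to 11.2% in WT libraries. These are levels of RNA, and no protein or proton leak was measured.

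Of 8 related mitochondrial carriers, which include the other genes named for uncoupling, 7 were measured. Between isoproterenol and saline in KO tissue 2 of 7 were higher and 2 of 7 lower (1 and 2 without KO isoproterenol replicate 1), with a median log2 difference of 0.09, against -0.0021 over all genes, of which 23.8% were higher and 24.8% lower. Slc25a30, the kidney mitochondrial carrier, rose by 1.18 (limma adjusted p = 1.85e-04), and Slc25a10, the dicarboxylate carrier, by 0.93 (adjusted p = 0.0491). The adenine nucleotide carrier Slc25a4 fell by 1.69 (adjusted p = 1.01e-04) and the oxoglutarate carrier Slc25a11 by 1.31 (adjusted p = 3.21e-04). Slc25a14 and Slc25a27, also named UCP5 and UCP4, differed by 0.46 (adjusted p = 0.144) and 0.09 (adjusted p = 0.721). Slc25a10 was the only one of the 7 to pass in WT tissue, where it rose with isoproterenol by 1.17 (adjusted p = 0.0422), and none did with library totals.

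Between KO and WT with isoproterenol, 2 of 7 carriers were higher and 3 of 7 lower (1 and 2 without KO isoproterenol replicate 1), where 21.6% of all genes were higher and 23.1% lower. Slc25a30 differed by 0.92 (adjusted p = 0.00137) and Slc25a14 by 0.67 (adjusted p = 0.0404). The lower ones were Slc25a11 at -1.38 (adjusted p = 2.85e-04), Slc25a4 at -1.32 (adjusted p = 8.07e-04) and Slc25a5, another adenine nucleotide carrier gene, at -0.67 (adjusted p = 0.0405). None of the 7 passed between KO and WT with saline, where 1061 of all genes had an unadjusted limma p under 0.05 and 15 passed.

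Heat cycles that do not use UCP1, such as creatine, glycerol-3-phosphate and calcium cycling, were listed with 16 genes, of which 15 were measured. Between isoproterenol and saline in KO tissue 1 of 15 was higher and 6 of 15 lower, with a median of -1.01 (-0.17 without KO isoproterenol replicate 1), beside 23.8% higher and 24.8% lower among all genes. Alpl, the phosphatase of creatine cycling, rose by 1.81 (limma adjusted p = 3.20e-05) in KO tissue and by 1.75 (adjusted p = 2.49e-04) in WT tissue. Pm20d1, the enzyme that makes N-acyl amino acids, which can uncouple mitochondria, fell by 4.66 (adjusted p = 2.67e-06) in KO tissue, and Gpd2, the mitochondrial glycerol-3-phosphate dehydrogenase, fell by 2.62 (adjusted p = 0.00221). Between KO and WT with isoproterenol, 1 of 15 was higher and 5 of 15 lower, against 21.6% and 23.1% of all genes. The higher one was Slc6a8, the creatine transporter, by 1.47 (adjusted p = 9.35e-05), which in WT tissue fell with isoproterenol by 1.49 (adjusted p = 3.05e-04).

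In the KO isoproterenol libraries all 3 members ran in the same order, replicate 1 lowest, then 2, 3 and 4. As a share of the library's own reads, without the authors' scaling, Ucp2 was instead highest in replicate 3. The order of Ucp1 in that group was met by 12.3% of all other genes and that in KO saline by 3.42%. In KO saline, replicates 1 and 3 were the higher pair for each member, though the full order of Ucp1 was met by neither Ucp2 nor Ucp3.

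To put a size on this, each gene's log2 CPM was fitted to treatment and to the library's own Ucp1 log2 CPM over the 8 KO libraries, giving a slope per log2 unit of Ucp1. The slope was 0.53 for Ucp3 (SE 0.08, limma adjusted p = 0.00600) and 0.16 for Ucp2 (SE 0.04, adjusted p = 0.0254), where 14.0% of all other genes passed. Both slopes lost the threshold without KO isoproterenol replicate 1, at 0.72 (adjusted p = 0.353) for Ucp3 and 0.14 (adjusted p = 0.639) for Ucp2. They also lost it without KO isoproterenol replicate 4, at 0.40 (adjusted p = 0.0543) and 0.17 (adjusted p = 0.145). With library totals in place of the authors' scaling, Ucp2 had a slope of 0.13 (adjusted p = 0.0681). Over all genes, 2152 passed with 8 libraries, 1421 with a positive and 731 with a negative slope (1101 and 993 with library totals). There were 0 calls without KO isoproterenol replicate 1 (1411 at an unadjusted p under 0.05) and 79 without KO isoproterenol replicate 4, so the calls of this fit rest on these libraries.

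Without the treatment term the Ucp2 slope over the 8 KO libraries turned to -0.028 (adjusted p = 0.937), and that of Ucp3 was 0.67 and did not pass (adjusted p = 0.0735). In the 8 WT libraries the slope was 0.85 for Ucp3 (adjusted p = 0.0670) and -0.53 for Ucp2 (adjusted p = 0.146), neither past the threshold. The difference of these slopes from those in KO tissue was not tested.

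**Figure D4:**
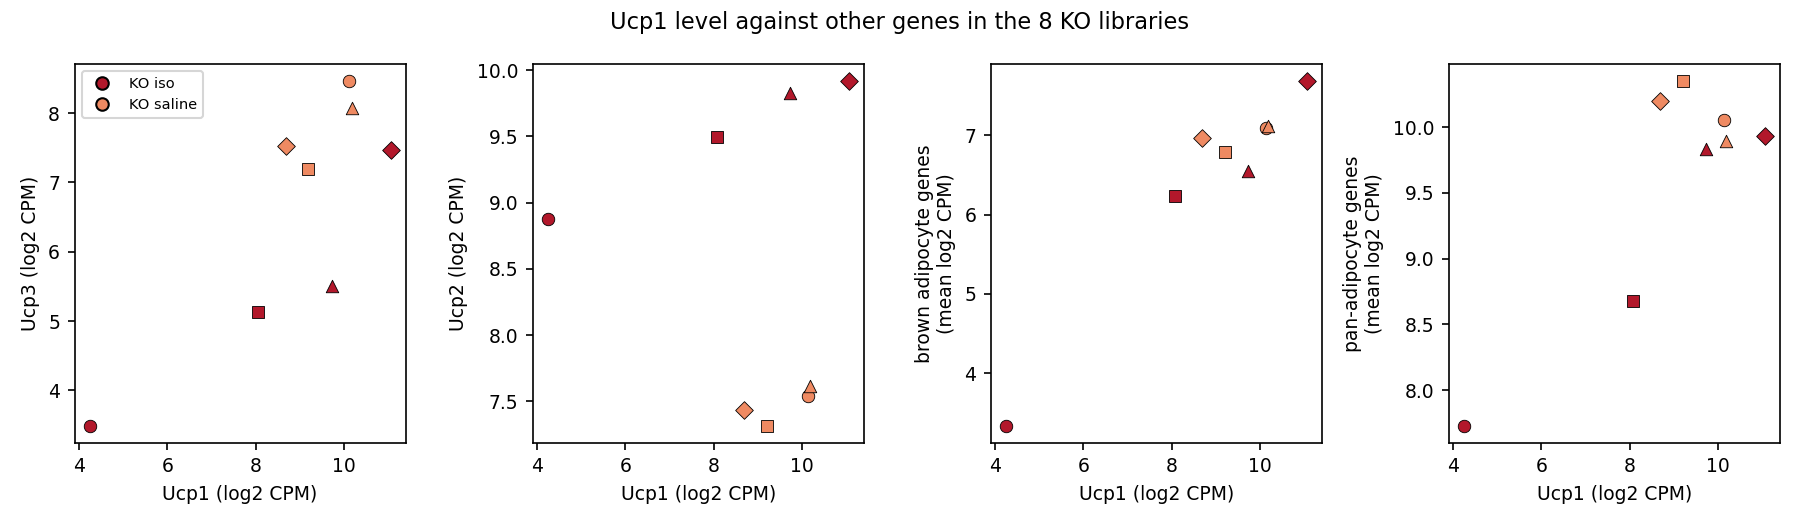
Ucp3, Ucp2, the mean of 22 brown adipocyte genes and the mean of 16 pan-adipocyte genes against Ucp1 in the 8 KO libraries (log2 CPM on all axes, color for treatment, shape for replicate). The KO isoproterenol libraries with more Ucp1 lie higher in all 4 panels, while the KO saline libraries cover a short stretch of Ucp1.

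Genes of the brown adipocyte ran with Ucp1 across KO libraries. Of the 22 listed, 19 had a positive slope that passed and none a negative one, against 9.26% of all genes with a positive and 4.76% with a negative call. Their median slope was 0.63, against -0.01 over all genes, and 21 of 22 slopes were above 0, against 47.7% of all genes. Elovl3, a fatty acid elongase of brown fat, had a slope of 1.18 (limma adjusted p = 5.54e-04), Ppargc1a, the coactivator of mitochondrial genes, 0.97 (adjusted p = 0.00134), and the lipid droplet protein gene Cidea 0.90 (adjusted p = 0.00434), which was 0.41 without KO isoproterenol replicate 1. Without that library no gene passed, and the median was 0.39 with 20 of 22 slopes above 0, against 49.1% of all genes.

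In KO isoproterenol libraries 15 of the 22 ran in the same order as Ucp1, against 12.3% of all other genes. In KO saline libraries 2 of 22 did, against 3.42%. They were Elovl3 and Ebf2, a transcription factor of brown adipocyte identity. Between groups the 22 genes were mostly lower in KO tissue with isoproterenol. Of the 22, 2 were higher and 13 lower with isoproterenol than with saline in KO tissue, 3 higher and none lower in WT tissue, and none higher and 12 lower in KO than in WT with isoproterenol. Without KO isoproterenol replicate 1 these counts were 4 and 13, 7 and 0, and 1 and 10. Among all genes 23.8% were higher and 24.8% lower in the first of these comparisons, 7.6% and 8.98% in WT tissue, and 21.6% and 23.1% between KO and WT. Cox8b and Cox7a1, respiratory chain subunits of brown fat, differed by -3.70 (adjusted p = 8.93e-04) and -3.65 (adjusted p = 6.50e-04) between KO and WT with isoproterenol.

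Of the 16 pan-adipocyte genes, which white and brown adipocytes share, 10 passed with a positive slope and none with a negative one. This compares with 9.26% and 4.76% of all genes. The median slope of the 16 was 0.36, and without KO isoproterenol replicate 1 the median was 0.31 with 14 of 16 above 0. The fatty acid carrier gene Fabp4 had a slope of 0.45 (limma adjusted p = 0.0107), the lipoprotein lipase gene Lpl 0.33 (adjusted p = 0.0223) and the lipase gene Pnpla2 0.57 (adjusted p = 0.00469). Adipoq, the adiponectin gene, had 0.25 (adjusted p = 0.139). In KO isoproterenol libraries 11 of 16 ran in the order of Ucp1, against 12.3% of all other genes. In KO saline libraries none did, against 3.42%. The mean log2 CPM of the list was 7.73, 8.68, 9.83 and 9.93 in KO isoproterenol replicates 1 to 4 and 10.05, 10.35, 9.90 and 10.20 in KO saline replicates 1 to 4.

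Regulators of Ucp1 transcription, which bind or act on its enhancer and promoter and include 5 of the brown adipocyte genes, were mixed. Of 26, 10 had a positive slope and 2 a negative slope that passed, against 9.26% and 4.76% of all genes. The median slope was 0.15. Besides Ppargc1a, the estrogen-related receptor gene Esrrg had 0.62 (limma adjusted p = 0.00119) and Ppargc1b, another coactivator gene, 0.65 (adjusted p = 0.00363), while the negative ones were Rbl1, a pocket protein gene, at -0.19 (adjusted p = 0.0357) and Creb1, which mediates cyclic AMP, at -0.13 (adjusted p = 0.0433). These were -0.090 and -0.049 without KO isoproterenol replicate 1. Between KO and WT with isoproterenol, 3 were higher and 11 lower, against 21.6% and 23.1% of all genes. With library totals 4 of 26 were higher and 5 lower, where 5030 and 2527 of the 15350 genes were. The lower genes in the first count included Ppara at -2.56 (adjusted p = 0.0140) and Esrra at -1.86 (adjusted p = 9.81e-05). Nrip1, which encodes the corepressor RIP140, was higher by 1.06 (adjusted p = 0.0439). Between KO and WT with saline none of the 26 passed.

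PPAR target genes, which bear on fatty acid oxidation and are a group to which Ucp3 is also counted, had a median slope of 0.63. The list shares Cpt1b, Plin5 and Fabp3 with the brown adipocyte genes. Of its 16 genes, 13 passed, all positive, against 9.26% of all genes. All 16 slopes were above 0, against 47.7% of all genes. Ehhadh, of peroxisomal oxidation, had 1.15 (limma adjusted p = 0.00522) and Pdk4, which restrains glucose oxidation, 1.05 (adjusted p = 0.00392). Without KO isoproterenol replicate 1 Pdk4 had 0.64 and the median was 0.52, again with all 16 above 0 and none past the threshold. Between isoproterenol and saline in KO tissue 2 of 16 were higher and 6 lower (4 and 4 without KO isoproterenol replicate 1, 3 and 3 with library totals), beside 23.8% and 24.8% of all genes. With all 16 libraries, a smaller share was thus higher and a larger share lower than among all genes. Over both directions together, the share called was close to the 48.6% of all genes. The higher ones were Cpt1a, of mitochondrial fatty acid entry, at 2.54 (adjusted p = 9.04e-07) and Plin2, a lipid droplet coat gene, at 1.50 (adjusted p = 0.00409), the direction of Ucp2 and not of Ucp3.

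Among markers of other cells few slopes passed, where 14.0% of all other genes did. None of the 18 macrophage markers passed, at a median slope of -0.24, and none of the 17 muscle markers, at a median of 0.42 with all libraries and -0.32 without KO isoproterenol replicate 1. Of 7 measured neutrophil markers 1 passed with a negative slope, and of 9 fibroblast markers 1. In KO saline libraries, however, 7 of the 18 macrophage markers ran in the order of Ucp1, against 3.42% of all other genes. In KO isoproterenol libraries none did, against 12.3%.

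**Figure D5:**
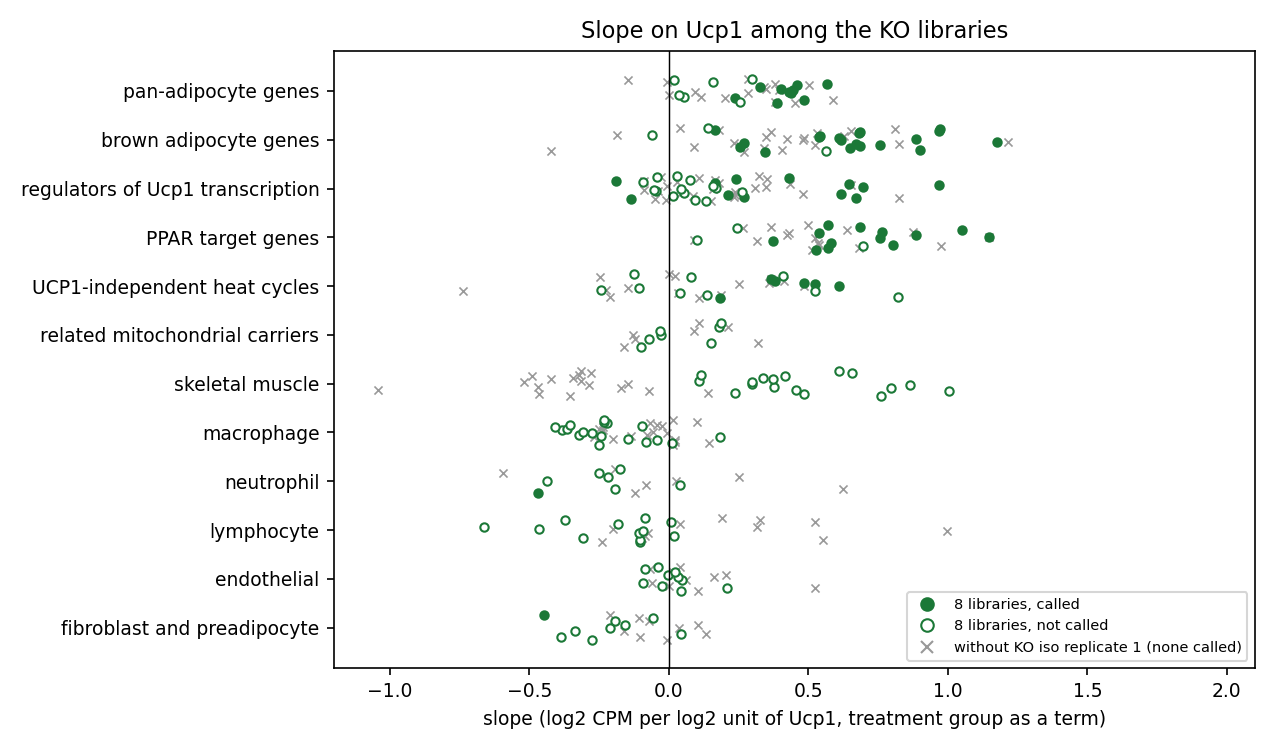
Slope of each listed gene on Ucp1 among the KO libraries (log2 CPM per log2 unit of Ucp1, treatment in the fit), by gene list, with filled circles for an adjusted p under 0.05 and grey crosses for the slope without KO isoproterenol replicate 1. The brown adipocyte and PPAR target lists have medians of 0.63, while the macrophage list has a median of -0.24 and the muscle list turns to -0.32 without that library.

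Among genes with a mean of at least 2 log2 CPM that passed with 8 libraries, the steepest positive slopes belonged to Mfsd2a (1.41), Lgr6 (1.24), Sgk2 (1.19), Elovl3 (1.18) and Tmem56 (1.18). In KO isoproterenol replicate 1 Mfsd2a, Lgr6, Sgk2 and Tmem56 were at 0.36, 0.31, 0.12 and 0.024 CPM, and without that library their slopes were 1.04, 0.46, 0.43 and 0.27, while that of Elovl3 was 1.22. Sgk2 and Tmem56 lay below the floor of 3 reads there, worth 0.143 CPM in that library. The steepest negative slopes belonged to Spp1 (-0.73), Sfrp2 (-0.67), Slfn4 (-0.61), Chil3 (-0.59) and Tent5c (-0.56). Without that library these were -1.23, -0.56, -0.69, -0.78 and -0.33 in the same sequence, so the order rests on it. Spp1, the osteopontin gene, which macrophages can express, averaged 1802 ± 1839 CPM in KO isoproterenol and 2.49 ± 1.38 CPM in KO saline libraries (SD, n = 4 each).

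Over all 16 libraries, likeness was measured as Pearson's r of log2 CPM among 11224 genes with a mean of at least 2 log2 CPM, with the groups themselves contributing to every r. Ucp1 and Ucp3 had an r of 0.80, Ucp1 and Ucp2 -0.33, and Ucp2 and Ucp3 -0.60. The genes most like Ucp1 were Mfsd4b1 (0.955), Mrps30 (0.923), Cpt2 (0.915), Tbc1d20 (0.912) and Adgra3 (0.909). Those most like Ucp2 were Apod (0.959), Qsox1 (0.956), Adgre5 (0.949), Slit3 (0.947) and Cars (0.942), and those most like Ucp3 were Crls1 (0.976), Itpk1 (0.975), Gpat4 (0.975), Ndrg3 (0.971) and Supv3l1 (0.968).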

How the data were processed

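Strand-marking mRNA libraries were read as 75 base single reads, per the labels. The deposited values are log2 CPM for 15350 genes in each of 16 libraries, and the submitters' processing notes name STAR, limma and build mm39, while the annotation, the counter and its settings are not named there. Each value was (reads + 0.5) times a step set by its library, and whole reads came back from 100% of values (relative tolerance 1e-06), so the authors' scaled library size, 0.854 to 1.25 times the read total, precedes the log2. Titles gave the replicate numbers, although 3 KO saline columns carry another number, and the treatment characteristic gave the treatment, although the protocol text of the saline samples describes the isoproterenol infusion.

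The log2 CPM were fitted in limma 3.58.1 (R 4.3.3, statmod 1.5.0) with 4 group means over 16 libraries and trended, robust empirical Bayes moderation, and p-values were adjusted by the Benjamini-Hochberg method over all genes. A count test had been planned for whole-number counts only. The fits were also run on simulated reads with independent errors, which cannot show how far calls in the real data rest on single libraries. Symbols (15320 of 15350), transcript lengths and gene order came from GENCODE M21 on GRCm38. Genes named beside the members are the 5 most like each by r, the 5 steepest called slopes in each direction among genes with a mean log2 CPM of at least 2, the 2 nearest listed genes on each side, and list members by mean level or call. The members and lists were chosen with earlier results of these data known. Same-numbered WT isoproterenol and WT saline libraries deviated together from their group means (correlations 0.21 to 0.535 over genes in all 4 pairs). The 4 KO pairs did so only weakly (0.0329 to 0.239), so the replicate block was an alternative. Same-numbered KO and WT libraries had correlations of -0.246 to 0.218 with isoproterenol and -0.431 to 0.0254 with saline. The numbers thus gave no common pairing across genotypes.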

Additional observations from a re-analysis of the deposited data

Results flagged for a closer look

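Ucp1 in WT saline libraries was flagged for replicate 1, at 2298 CPM against 3220 to 3449 CPM in the other WT saline libraries. Its gap to the nearest library was 0.831 of the group's range, just above Dixon's 95% critical value for 4 samples. Of 12 groups tested this was the only one, and chance flags about 1 in 20. The isoproterenol response of Ucp2 differed between genotypes by 1.12 log2 units, KO response minus WT response. That of Ucp3 differed by -2.78 log2 units, in the opposite direction.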

How the results depend on the processing

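Over the 15 member comparisons, 103 of 109 alternatives other than leaving out a library kept direction and call, and so did 138 of 144 fits that left out 1 library. Ucp1 passed with the compared libraries alone in WT isoproterenol minus saline (2.16, limma adjusted p = 1.18e-04, or 4.84e-05 with the replicate block) and in KO minus WT with saline (-2.02, adjusted p = 0.0438). The Ucp2 interaction with the macrophage covariate (1.16, adjusted p = 0.154), the Ucp3 interaction with voom weights (-2.73, adjusted p = 0.0520) and Ucp3 between isoproterenol and saline in KO with the replicate block on 8 libraries (-2.42, adjusted p = 0.0553) did not pass. Added to the 8 saline libraries alone, the block took the Ucp1 call away (adjusted p = 0.235), although same-numbered KO and WT saline libraries did not deviate together (correlations -0.431 to 0.0254). Added to the 8 KO libraries alone, it took the Ucp3 call away, which had a limma adjusted p of 0.0326 without the block. The block changed no other call of a fit with the same libraries. Voom weights and the block on compared libraries were chosen after seeing the data. The cause of these changes was not tested.

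Leaving out 1 library gave -2.20 to 0.0717 for Ucp1 between isoproterenol and saline in KO, the highest without KO isoproterenol replicate 1, and -4.36 to -2.09 for its interaction. It gave -0.0750 to 0.37 for Ucp3 between KO and WT with saline, at -0.0522 without KO saline replicate 1 and -0.0750 without WT saline replicate 1, and -3.47 to -2.14 for its interaction. Genes with a called slope on Ucp1 numbered 2152, 200 with no treatment term, 582 in WT libraries, and 0 to 3169 without 1 KO library.

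With library totals in place of the authors' scaling, the median gene shifted by 0.182 (isoproterenol minus saline, KO), -0.113 (the same, WT), 0.257 (KO minus WT, isoproterenol) and 0.295 (interaction), and no member changed direction or call in these comparisons. The planned count model was not run because the deposited unit is log2 CPM. Depth limits none of the members, whose lowest count was far above 3 reads.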

Other observations

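Genes beside the members on their chromosomes were looked at for all 4 groups. Scoc, a neighbour of Ucp1, averaged 14.4 ± 3.22 CPM in KO and 43.7 ± 3.22 CPM in WT libraries with isoproterenol (SD, n = 4 each). KO minus WT was -1.62 log2 units with isoproterenol (limma adjusted p = 4.43e-06) and -0.73 with saline, which did not pass (adjusted p = 0.121). Scoc also passed between isoproterenol and saline in KO tissue (-0.77, adjusted p = 6.85e-04) and in the interaction (-0.89, adjusted p = 0.00897). Of all genes, 44.6% passed between KO and WT with isoproterenol, 48.6% between isoproterenol and saline in KO tissue and 24.7% in the interaction. Tbc1d9, also beside Ucp1, averaged 41.5 ± 22.3 CPM in KO isoproterenol, 23.7 ± 10.5 in KO saline, 11.8 ± 2.26 in WT isoproterenol and 8.74 ± 1.65 in WT saline libraries (SD, n = 4 each). It was higher in KO than in WT tissue by 1.70 with isoproterenol (adjusted p = 0.00111), and by 1.35 with saline without passing (adjusted p = 0.295). Elmod2, the next listed gene, passed in none of the 5 comparisons. Gm17999 had under 2 CPM on average in every group and passed only between isoproterenol and saline in KO tissue (-2.37, adjusted p = 3.90e-04). On chromosome 7, beside Ucp2 and Ucp3, none of Gm10603, C2cd3, Dnajb13 and Coa4 passed in any of the 5 comparisons.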
